A study of Arabidopsis thaliana with 12 samples.

Results

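Berberine bridge enzyme-like proteins are flavin-dependent oxidases, a plant family named after the enzyme that closes the berberine bridge in alkaloid synthesis. In Arabidopsis, FOX1 (FAD-LINKED OXIDOREDUCTASE) belongs to a pathogen-induced branch of indole metabolism that makes a hydroxylated indole carbonylnitrile from tryptophan, and OGOX1, OGOX2 and CELLOX oxidize oligogalacturonides and cellodextrins, fragments of the cell wall that plants perceive as damage signals. The other genes described here, FOX2 to FOX5, AT1G30700 and AT1G30720, encode relatives whose substrates are less well known. The 10 genes were taken by their AGI identifiers from a count table of 33610 genes: FOX1 (AT1G26380) and its tandem neighbours FOX2 (AT1G26390), FOX3 (AT1G26400), FOX4 (AT1G26410) and FOX5 (AT1G26420), then AT1G30700, AT1G30720, OGOX1 (AT4G20830), OGOX2 (AT4G20840) and CELLOX (AT4G20860). They were picked with their difference between colonized and germ-free plants in these libraries in view, so that difference is given as a description: no p-value is printed for it, and nothing is drawn from how many of them passed a threshold. RefSeq annotates 27 Arabidopsis genes with a berberine bridge enzyme-like product, and the other 17 serve as the comparison.

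The libraries came from whole rosettes of 21-day-old wild-type Col-0 plants grown in FlowPots, a peat-based gnotobiotic system. Holoxenic (HO) plants had been inoculated with the live microbial community of either an MSU soil (Michigan) or a Malaka soil (Iowa), and axenic (AX) plants with the autoclaved community of the same soil, giving 4 groups of 3 libraries (HO-Malaka, AX-Malaka, HO-MSU and AX-MSU). Each library was made from 8 rosettes pooled from 4 FlowPots of a single microbox. A difference in such bulk RNA cannot tell apart more cells of a type from more RNA per cell.

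The 12 libraries held between 10211008 and 22710086 counts, of which nuclear rRNA genes took 9.88% to 21.8% and organelle genes 48.5% to 57.7%. Levels are given as CPM (counts relative to a library sum of 1000000) on library sizes scaled by the TMM method. HO-Malaka replicate 2 stood apart with the highest rRNA share (21.8%) and the lowest scaling factor (0.788, against 0.881 to 1.12 in the others). Leaf markers summed to between 11597 and 13607 CPM in every library. Root markers (6 genes) summed to at most 0.407 CPM and RHD6 was at 0 in every group, seed storage genes summed to at most 0.122 CPM, and flower markers to at most 0.706 CPM except in an AX-Malaka library with 1.68 CPM.

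The 10 genes lie in 3 tandem clusters. The 5 FOX genes fill 16600 bases of the minus strand of chromosome 1 (chr1:9126737-9143336 in TAIR10), and their coding sequences share between 85.5% and 87.4% of their bases. AT1G30700 (chr1:10892445-10894714) and AT1G30720 (chr1:10897925-10899975) sit on the plus strand of the same chromosome in a run of 5 family genes, beside AT1G30730 (chr1:10900681-10902626), which shares 85.1% of its coding bases with AT1G30720. OGOX1 (chr4:11155453-11157806), OGOX2 (chr4:11157916-11159867; 86.2% identical to OGOX1) and CELLOX (chr4:11172622-11174467) lie on the plus strand of chromosome 4.

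**Figure D1:**
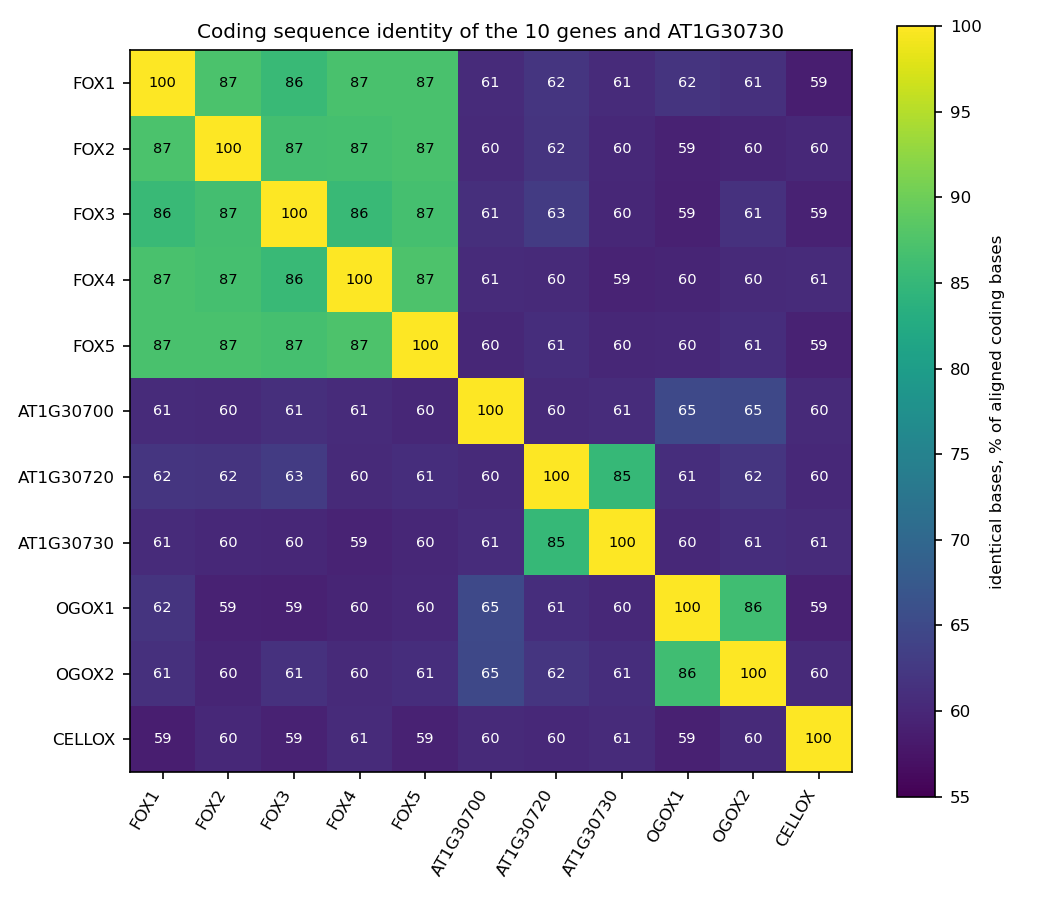
Percentage of identical bases between the aligned coding sequences of the 10 genes and AT1G30730, each cell a pair of genes. The FOX genes form a block of 85.5% to 87.4%, AT1G30720 pairs with AT1G30730 (85.1%) and OGOX1 with OGOX2 (86.2%).

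Such near copies could exchange reads, depending on how the authors treated reads with several matches. The longest runs of identical bases in 2 pairs of near copies are printed to show how much sequence could be confused; the first lies at chr1:10899556-10899621 in AT1G30720 and chr1:10902210-10902275 in AT1G30730, the other at chr1:9130201-9130277 in FOX2 and chr1:9138811-9138887 in FOX4 (RefSeq gene models, TAIR10.1, transcribed strand).

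AT1G30720 and AT1G30730, 66 bases: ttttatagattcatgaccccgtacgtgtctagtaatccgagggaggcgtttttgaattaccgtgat

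FOX2 and FOX4, 77 bases: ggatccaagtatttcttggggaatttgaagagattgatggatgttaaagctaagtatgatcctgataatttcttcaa

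Of all windows of 50 bases along the exons, none in FOX1, FOX5, AT1G30700, OGOX1, OGOX2 or CELLOX recurred exactly elsewhere in the genome. The share that did was 1.86% in FOX2, 0.261% in FOX3, 1.57% in FOX4 and 1.50% in AT1G30720. Windows within 2 mismatches of another family gene made up 16.2% to 20.1% of the 5 FOX genes, 11.8% of AT1G30720, 4.78% of OGOX1 and 4.83% of OGOX2. For the FOX cluster and for AT1G30720 with AT1G30730, summed values are therefore given beside those of single genes.

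WRKY transcription factors, regulators of immune genes, bind the W-box. The upstream sequences of FOX1, FOX5 and AT1G30720, of the neighbour AT1G30730 and of the most abundant member, OGOX1, are therefore printed. Those of the other genes with a large difference, AT1G30700, FOX2 and FOX4, are not printed. Capitals mark W-boxes, TTGACC or TTGACT, on the strand shown or as their complements GGTCAA and AGTCAA, within the 250 bases before the annotated start of the transcript (RefSeq gene models, TAIR10.1, 5′ to 3′ on the strand of the gene).

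FOX1, chr1:9128569-9128818, minus strand: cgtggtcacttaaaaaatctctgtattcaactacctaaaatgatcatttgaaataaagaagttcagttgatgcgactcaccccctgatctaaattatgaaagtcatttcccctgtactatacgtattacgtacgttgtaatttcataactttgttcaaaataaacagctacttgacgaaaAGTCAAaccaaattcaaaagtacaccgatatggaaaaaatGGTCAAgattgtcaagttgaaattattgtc

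FOX5, chr1:9143337-9143586, minus strand: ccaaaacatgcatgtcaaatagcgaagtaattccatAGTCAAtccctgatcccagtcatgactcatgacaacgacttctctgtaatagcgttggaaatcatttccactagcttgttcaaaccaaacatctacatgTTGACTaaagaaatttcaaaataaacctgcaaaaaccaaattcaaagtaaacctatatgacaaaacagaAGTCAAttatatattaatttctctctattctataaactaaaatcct

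AT1G30720, chr1:10897675-10897924, plus strand: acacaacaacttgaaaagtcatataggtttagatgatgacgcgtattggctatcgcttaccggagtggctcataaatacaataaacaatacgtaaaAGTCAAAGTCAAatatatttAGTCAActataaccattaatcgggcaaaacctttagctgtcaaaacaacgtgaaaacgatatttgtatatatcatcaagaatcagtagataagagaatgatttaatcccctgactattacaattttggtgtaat

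AT1G30730, chr1:10900431-10900680, plus strand: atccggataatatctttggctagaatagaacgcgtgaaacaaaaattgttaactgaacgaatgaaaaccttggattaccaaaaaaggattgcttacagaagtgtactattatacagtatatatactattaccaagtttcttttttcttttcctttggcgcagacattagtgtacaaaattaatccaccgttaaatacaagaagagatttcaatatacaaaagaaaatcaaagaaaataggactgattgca

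OGOX1, chr4:11155203-11155452, plus strand: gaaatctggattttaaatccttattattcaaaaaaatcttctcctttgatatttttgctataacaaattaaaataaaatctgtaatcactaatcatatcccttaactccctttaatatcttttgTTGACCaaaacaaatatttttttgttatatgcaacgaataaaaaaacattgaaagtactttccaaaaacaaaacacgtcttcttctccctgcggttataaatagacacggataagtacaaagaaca

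The FOX1 window held 2 W-boxes, which began 70 and 30 bases before the start. FOX5 held 3, at 214, 115 and 46 bases, and AT1G30720 held 3, at 154, 148 and 134 bases, the first and second directly adjoining. AT1G30730 held none in this window, and OGOX1 held 1, at 126 bases. Among the other members FOX2, FOX4, AT1G30700 and CELLOX had 1 each, and FOX3 and OGOX2 had none. The members printed for their large difference are thus those with 2 or more, while AT1G30700, FOX2 and FOX4, which also differed strongly, had 1. The annotated transcripts of FOX3 and OGOX2 begin at the start codon, so their windows cover another region than the rest. The window of OGOX2 also overlaps OGOX1. At least 1 was thus found for 8 of the 10 genes and for 7 of the 17 other family genes, against 28.4% of the 27438 promoters searched, and 2 or more for 3 of the 10 and 2 of the 17, against 6.18% of promoters. The tandem genes are copies of each other and are not independent instances, and a match is a description of the sequence only.

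The FOX genes were close to absent from AX rosettes. FOX1 had 29, 27 and 66 counts in the HO-Malaka libraries (1.69, 2.54 and 4.66 CPM) and 31, 16 and 25 in the HO-MSU libraries (1.89, 0.714 and 1.89 CPM), against 0 in all 6 AX libraries. Every HO library lay above every AX library. Taking 3 counts as the most that a group without counts could hold, FOX1 was at least 37.1-fold higher in HO-Malaka and at least 21.0-fold higher in HO-MSU plants than in the corresponding AX plants.

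FOX5, at the other end of the cluster, had 51, 19 and 31 counts in HO-Malaka and 31, 23 and 38 in HO-MSU libraries. The AX-Malaka libraries had 1 count each and the AX-MSU libraries 0, 4 and 0. In CPM this was 2.31 ± 0.600 against 0.0813 ± 0.0191 (SD, n = 3) with the Malaka soil, and 1.93 ± 0.920 against 0.0921 ± 0.159 (SD, n = 3) with the MSU soil. The HO and AX groups did not overlap, and the ratio of the summed counts was 30.7 (95% Clopper-Pearson interval 10.2 to 151) for Malaka and 20.1 (7.58 to 75.3) for MSU. Here and below, such intervals treat the counts pooled over the libraries of a treatment as a single sample. They therefore leave out the variation between libraries and are not intervals for the effect of the treatment. The reads carry no molecular identifiers, so duplicate reads could also make them too narrow.

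FOX2, FOX3 and FOX4 had too few counts for the filter of the test. FOX4 had 7, 6 and 9 counts in HO-Malaka, 6, 2 and 7 in HO-MSU and 0 in every AX library. FOX2 had 13, 3 and 5 in HO-Malaka, 3, 0 and 8 in HO-MSU and 0 in every AX library. FOX3 was detected in a single library, HO-Malaka replicate 3, with 3 counts. All counts of these genes thus came from HO plants; over both soils FOX4 was at least 11.0-fold and FOX2 at least 9.50-fold higher in HO than in AX plants, and FOX3 stayed at the floor in both. Summed over the cluster, 459 counts in the 6 HO libraries stood against 7 in the 6 AX libraries, a ratio of 58.4 (28.1 to 146).

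The cluster was unevenly expressed, as the map of the tandem clusters shows. Per kilobase of exon, FOX1 (1.22 ± 0.725 CPM per kb, SD, n = 6) and FOX5 (1.17 ± 0.399) were equally abundant in HO plants within their spread. FOX4 (0.235 ± 0.106) and FOX2 (0.205 ± 0.157), which also did not differ beyond their spread, were lower, and FOX3 (0.0223 CPM per kb) was lowest. The level therefore did not follow the order of the genes along the chromosome, since the outermost genes were the most abundant. FOX1 and FOX5 did not rank the HO libraries alike: FOX1 was highest in HO-Malaka replicate 3 (4.66 CPM) and FOX5 in HO-Malaka replicate 1 (2.97 CPM), while both were lowest in HO-MSU replicate 2 (0.714 and 1.03 CPM).

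**Figure D2:**
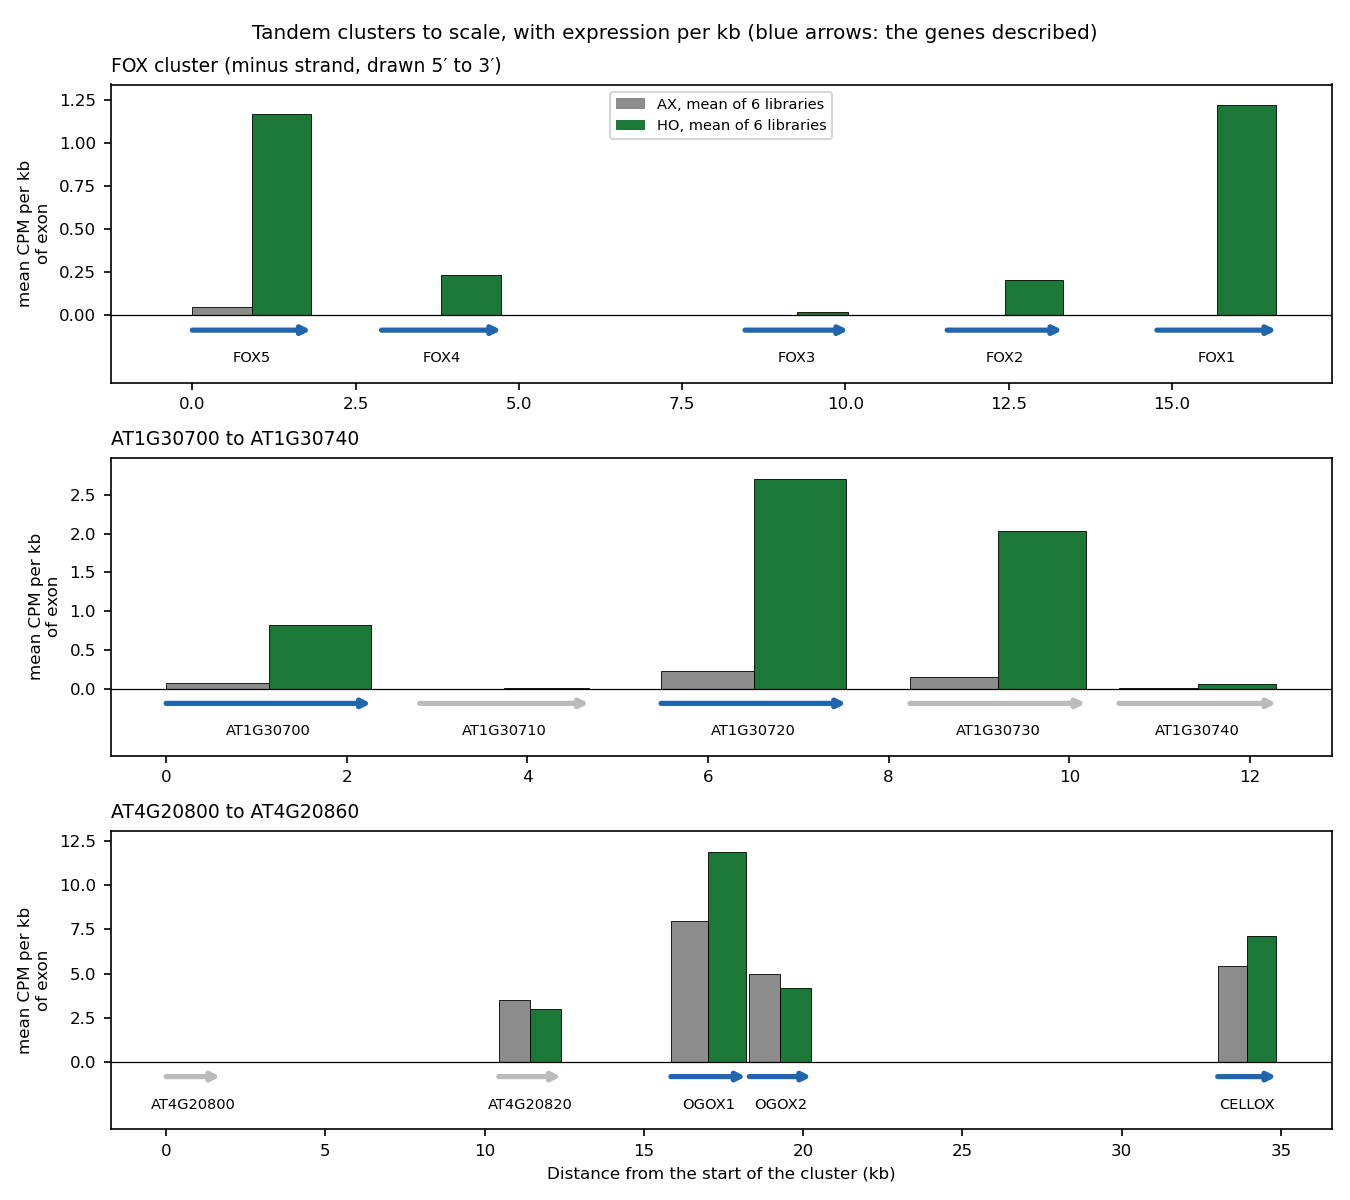
Mean CPM per kilobase of exon in AX (grey) and HO (green) plants, 6 libraries each, drawn over the 3 tandem clusters to scale, with distance from the start of the cluster in kb and arrows in the direction of transcription (blue, the 10 genes; grey, other family genes). In HO plants FOX1 (1.22) and FOX5 (1.17) flank lower neighbours, and AT1G30720 (2.71) and AT1G30730 (2.04) stand beside each other.

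AT1G30720 was the most abundant of the genes with a large difference. Its HO-Malaka libraries had 78, 44 and 73 counts (4.54, 4.14 and 5.15 CPM) and its HO-MSU libraries 105, 123 and 101 (6.42, 5.49 and 7.62 CPM). The AX-Malaka libraries had 3, 7 and 7 counts (0.240, 0.440 and 0.707 CPM) and the AX-MSU libraries 11, 7 and 5 (0.656, 0.483 and 0.352 CPM). The lowest HO library was well above the highest AX library in both soils. The log2 fold change (log2FC) of HO over AX was 3.35 ± 0.33 (SE) with the Malaka and 3.66 ± 0.30 with the MSU community.

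AT1G30700 was lower and more variable. It had 14, 20 and 29 counts in HO-Malaka and 40, 26 and 22 in HO-MSU libraries, against 0, 0 and 4 in AX-Malaka and 0, 7 and 1 in AX-MSU libraries. The groups did not overlap in CPM, although the highest AX library (0.483 CPM) came within reach of the lowest HO library (0.814 CPM). Its log2FC was 3.75 ± 0.82 (SE) with Malaka and 3.23 ± 0.70 with MSU.

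The neighbour AT1G30730, which is not among the 10 genes, had nearly the same profile as AT1G30720, with 61, 37 and 59 counts in HO-Malaka and 76, 75 and 61 in HO-MSU libraries, against 0, 4 and 6 in AX-Malaka and 5, 7 and 2 in AX-MSU libraries. Its log2FC was 3.78 ± 0.46 (SE) with Malaka and 3.72 ± 0.42 with MSU. AT1G30730 passed the filter of the test only through its HO libraries, and it is a near copy of a gene picked on this contrast. No p-value is therefore printed for it. Because both genes share sequence, their sum is the safer value: 893 counts in HO against 64 in AX libraries, a ratio of 12.4 (9.64 to 16.3).

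OGOX1, which oxidizes oligogalacturonides released from pectin, was abundant in AX plants too. It was measured at 23.8, 24.2 and 29.0 CPM in HO-Malaka and 29.4, 26.1 and 24.4 CPM in HO-MSU plants. The AX-Malaka plants had 18.2, 16.0 and 17.3 CPM and the AX-MSU plants 19.0, 17.2 and 17.5 CPM. The lowest of the 6 HO values exceeded the highest of the 6 AX values, with a log2FC of 0.58 ± 0.11 (SE) for Malaka and 0.57 ± 0.11 for MSU, which is under the limit of 1 used for a call. Its exons share 946 bases with AT4G20835 on the opposite strand; that gene was not analysed here, and whether the counting used strand is not given in the sources used here.

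CELLOX, an oxidase of cellodextrins, was measured at 15.1, 7.71 and 11.6 CPM in HO-Malaka plants, within which the AX-Malaka values of 11.1, 8.11 and 10.7 CPM fell. The lowest value was that of HO-Malaka replicate 2. With the MSU soil the HO libraries (18.0, 12.9 and 13.7 CPM) lay above the AX libraries (10.3, 10.6 and 9.65 CPM), and the log2FC was 0.24 ± 0.18 (SE) for Malaka and 0.55 ± 0.17 for MSU. Without HO-Malaka replicate 2 the Malaka value of CELLOX was 0.44 ± 0.16 (SE).

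OGOX2 was the only one of the 7 tested genes with a lower fitted value in HO than in AX plants in both soils, with a log2FC of -0.28 ± 0.15 (SE) for Malaka and -0.24 ± 0.15 for MSU. It had 7.68, 9.97 and 8.12 CPM in HO-Malaka against 11.3, 11.2 and 8.29 CPM in AX-Malaka plants, which overlapped. The 6.60, 8.43 and 7.92 CPM of HO-MSU plants lay below the 8.65, 8.77 and 9.87 CPM of AX-MSU plants. OGOX1 and OGOX2, although neighbours and 86.2% identical, thus had fitted fold changes of opposite sign. The 95% interval of OGOX2 included 0 in both soils (-0.60 to 0.04 for Malaka and -0.55 to 0.07 for MSU), so its sign was not resolved.

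**Figure D3:**
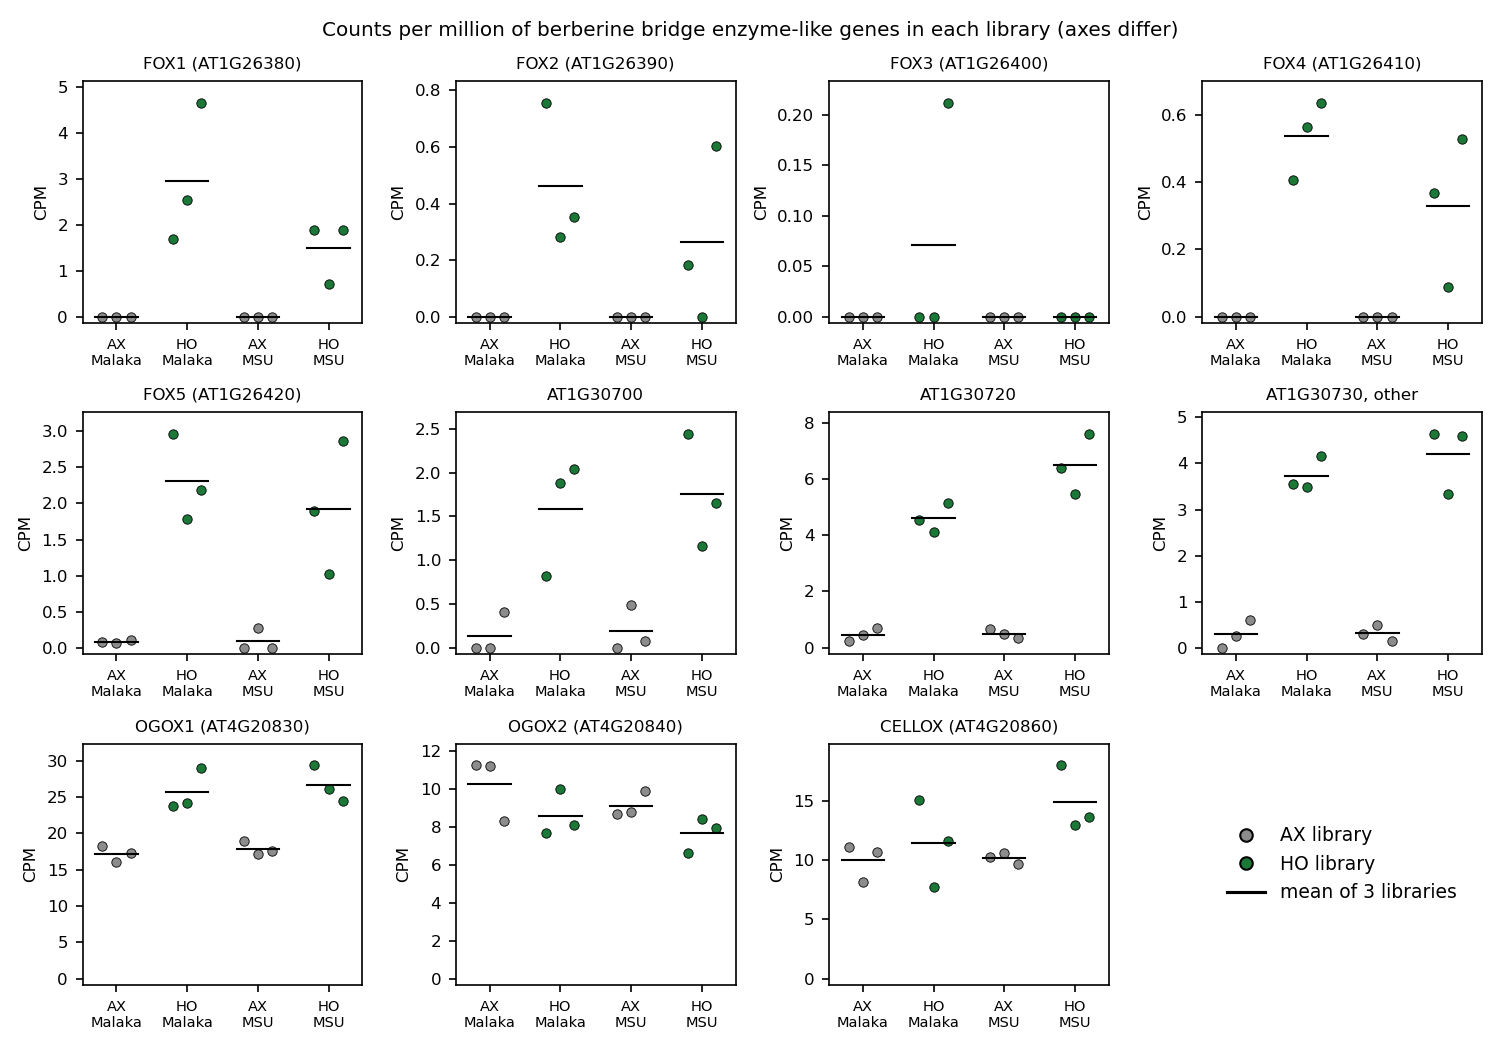
CPM of the 10 genes and of AT1G30730 in each of the 12 libraries, AX grey and HO green, with a line at the mean of each group of 3; the vertical axes start at 0 and differ between genes. FOX1 is at 0 in all AX libraries, AT1G30720 lies between 4.14 and 7.62 CPM in HO and between 0.240 and 0.707 CPM in AX plants, and OGOX1 lies between 16.0 and 29.4 CPM throughout.

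The filter on low counts left 7 of the 10 genes, and FOX1, FOX5, AT1G30700 and AT1G30720 passed it only through their HO libraries. These 4 met the limits used for other genes (a |log2FC| of at least 1 and an FDR under 0.05) on the higher side in each soil, which the choice of the genes largely fixed, where 1.25% of all tested genes were called higher with Malaka and 1.42% with MSU. The median log2FC of the 7 tested genes was 3.35 for Malaka and 3.23 for MSU, against 0.01 and 0.00 over all tested genes, and it is the same with FOX1 at its lower bound. Every HO library exceeded every AX library for 7 of the 10 genes with Malaka (FOX1, FOX2, FOX4, FOX5, AT1G30700, AT1G30720 and OGOX1), where 10.1% of tested genes did so, and for 7 with MSU (CELLOX in place of FOX2), where 12.4% did. These shares cover tested genes only, and FOX2 and FOX4 were not tested. OGOX2 alone lay below throughout with MSU, where 12.4% of tested genes did so, and none of the 10 with Malaka, where 9.11% did. Since the genes were picked on this contrast, nothing is read from these counts.

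Among the 17 other family genes 7 passed the filter, AT1G30730 and AT5G44390 only through their HO libraries. AT1G30730 alone was called higher with Malaka, while AT1G30730 and AT5G44390 were called higher and AT5G44400 lower with MSU; over all tested genes 1.6% were called in either direction with Malaka and 1.77% with MSU. AT5G44390 had 22 to 32 counts in HO-MSU and 2 to 11 in AX-MSU libraries, with a log2FC of 1.65, and 1.51 with Malaka. As for AT1G30730, no FDR is printed for it, and nothing is drawn from the calls of AT1G30730 and AT5G44390. AT5G44400 was measured at 2.19 to 3.17 CPM in HO-MSU and 3.46 to 7.11 CPM in AX-MSU plants, with a log2FC of -1.08 (FDR = 0.00643), and -0.27 with Malaka. The difference between the soils was not called for either gene (AT5G44400 interaction -0.82, FDR = 0.527, edgeR). With HO-MSU replicate 3 or AX-MSU replicate 3 left out, AT1G30730 remained the only call with MSU. AT5G44390 was also lost with scaling to total counts and without HO-MSU replicate 1, HO-MSU replicate 2 or AX-MSU replicate 1. AT5G44400 was also lost without AX-MSU replicate 2.

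AT2G34790 and AT2G34810, AT4G20820 and AT5G44410 were not called in either soil, with a log2FC between -0.73 and 0.23. AT2G34790 encodes a monolignol oxidoreductase, which acts on precursors of lignin. AT4G20820, which lies in the same cluster as OGOX1, had 4.28 to 7.50 CPM in HO and 4.71 to 9.60 CPM in AX libraries. Among genes under the filter, AT5G44380 had 56 counts in all HO and 26 in all AX libraries, AT1G30740 10 and 2, and AT1G30760 6 and 10. The median log2FC of the 7 tested other family genes was -0.13 for Malaka and -0.27 for MSU.

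The make-up of the family's transcripts differed between HO and AX libraries. Per kilobase of exon, OGOX1 (11.9 ± 1.14 CPM per kb in HO and 7.97 ± 0.451 in AX plants, SD, n = 6), CELLOX (7.13 ± 1.87 and 5.45 ± 0.581) and OGOX2 (4.16 ± 0.564 and 4.95 ± 0.675) held ranks 1 to 3 of the 27 genes in both. CELLOX and OGOX2 did not differ beyond their spread in AX plants. AT1G30720 held rank 5 in HO plants (2.71 ± 0.625 CPM per kb) and rank 10 in AX plants (0.234 ± 0.0868). FOX1 held rank 10 and FOX5 rank 11 in HO plants, and AT1G30700 (0.818 ± 0.292) followed at rank 12, within the spread of FOX5.

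The summed level of the 27 genes was 38.1 to 45.6 CPM per kb in HO and 29.4 to 34.0 in AX libraries. The FOX cluster made up between 2.63% and 9.92% of it in HO libraries (median 7.34%) and at most 0.447% in AX libraries. AT1G30700, AT1G30720 and AT1G30730 together made up 10.5% to 16.3% in HO and 0.346% to 2.78% in AX libraries. OGOX1, OGOX2 and CELLOX held 50.6% to 60.8% in HO and 53.0% to 63.3% in AX libraries, which overlapped.

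Whether the genes depended on the source of the community was tested between the soils, a contrast that had no part in their choice. Within HO plants none of the 7 tested genes passed an FDR of 0.05 (edgeR; lowest FDR = 0.456, for FOX1), where 0.29% of all tested genes did. At an unadjusted p under 0.05 there were 3 of the 7, and 1610 of the 17588 genes tested. FOX1 had a log2FC of MSU over Malaka of -1.02 (95% interval -1.89 to -0.14), with overlapping libraries, which moved to -0.51 without HO-Malaka replicate 3 and to -0.64 without HO-MSU replicate 2. AT1G30720 had a log2FC of 0.48 (0.03 to 0.93; FDR = 0.505, edgeR), and all 3 HO-MSU libraries lay above all 3 HO-Malaka libraries. CELLOX had a log2FC of 0.35 (0.00 to 0.69; FDR = 0.542, edgeR), which was 0.15 without HO-Malaka replicate 2. The others lay between -0.32 (FOX5, -1.16 to 0.52) and 0.16 (AT1G30700, -0.89 to 1.22), so that a change of less than about 1 on the log2 scale could not be resolved for the genes with few counts.

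Within AX plants none of the tested genes was called (lowest FDR = 0.772, for OGOX2; 0.648% of all tested genes were called; none at an unadjusted p under 0.05, edgeR). OGOX1 differed by 0.06 (-0.17 to 0.30), OGOX2 by -0.19 (-0.50 to 0.12) and CELLOX by 0.04 (-0.33 to 0.41). Few counts in AX plants left wide intervals for AT1G30720 (0.18, -0.77 to 1.12), FOX5 (0.16, -2.28 to 2.59) and AT1G30700 (0.69, -1.65 to 3.03). The lack of a call therefore says little about AT1G30720, FOX5 and AT1G30700. FOX1 without counts in either AX group gives no value here or in the interaction.

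The interaction of soil and treatment, which asks whether the HO-over-AX difference itself differed between MSU and Malaka, was called for none of the tested genes (lowest FDR = 0.805, for CELLOX; none at an unadjusted p under 0.05, edgeR), where 0.279% of all tested genes were called. The estimate was tight for OGOX1 (-0.01, 95% interval -0.32 to 0.31) and OGOX2 (0.04, -0.41 to 0.48), and wider for CELLOX (0.31, -0.20 to 0.81) and AT1G30720 (0.31, -0.77 to 1.39). For FOX5 (-0.48, -3.18 to 2.23) and AT1G30700 (-0.52, -3.04 to 1.99) the interval would hold several-fold differences between the soils. DESeq2 also called none of them in any of these contrasts, as far as it gave an adjusted p. Leaving out HO-Malaka replicate 2 raised the number of interaction calls over all genes from 49 to 191 and of HO soil calls from 51 to 223, and none of the tested members was among them.

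Genes around FOX1 in indole metabolism were examined as a list of 11, of which 8 passed the filter. With Malaka 3 were called higher and none lower, and with MSU 2 higher and 1 lower (edgeR). Over all tested genes 1.25% were called higher and 0.353% lower with Malaka, and 1.42% and 0.353% with MSU. The list was chosen with earlier results known. CYP71A12 and GSTF6 passed the filter only through their HO libraries, and CYP71A13 only through its AX libraries. Nothing is therefore drawn from these counts. The median log2FC was 0.47 and 0.46, against 0.01 and 0.00 over all genes. CYP71A12, a cytochrome P450 of the indole carbonylnitrile branch, had 83 counts in HO-Malaka and 0 in AX-Malaka libraries, at least 25.2-fold more. With MSU it had 49 against 1, a ratio of 42.8 (7.33 to 1724). GSTF6, a glutathione transferase implicated in camalexin synthesis, had a log2FC of 3.74 ± 0.34 (SE) with Malaka and 3.06 ± 0.33 with MSU. WRKY33, a transcription factor that activates genes of both branches, was called with Malaka only (1.05 ± 0.17), a difference between the soils that was not called by the interaction test. CYP71A13, a near copy of CYP71A12 that acts in camalexin synthesis, was called lower with MSU (-2.47 ± 0.62), with 16 counts in HO-MSU and 81 in AX-MSU libraries. Its AX-MSU libraries were uneven, at 0.705 to 3.28 CPM, against 0.226 to 0.357 CPM in HO-MSU libraries. CYP71B15, the P450 of the last step of camalexin synthesis, was under the filter, with 23 counts in HO-Malaka and 16 in HO-MSU libraries against 0 in every AX library, at least 6.99-fold and 4.66-fold higher. The P450 that acts beside FOX1, CYP82C2, had 3 counts in HO-Malaka libraries and 0 in all others.

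Of 12 genes for pectin, oligogalacturonides and their perception, 10 passed the filter, PME17 only through its HO libraries. Over all tested genes 1.25% were called higher with Malaka and 1.42% with MSU. PME17, a pathogen-induced pectin methylesterase, was called higher in both soils, with 68 counts against 0 for Malaka (at least 20.7-fold) and 47 against 0 for MSU (at least 13.7-fold). WAK1, a wall-associated kinase that binds oligogalacturonides, was called higher with MSU (log2FC 1.24 ± 0.23, SE) and was 0.11 ± 0.23 with Malaka. This difference between the soils was not called by the interaction test (1.13, FDR = 0.172, edgeR). No other gene of this list was called between HO and AX plants. Some had an FDR under 0.05 (edgeR) but missed the limit on the log2FC. These were WAK2 (0.67), PME3 (0.52) and, on the lower side, PGIP2 (-0.69) with MSU, and PME3 (0.47) with Malaka. The median log2FC of the list was 0.04 for Malaka and 0.31 for MSU. GAE1, which makes a precursor of pectin, was lower in AX-MSU than in AX-Malaka plants (-0.49 ± 0.10, SE; FDR = 0.00796, edgeR).

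A list of 8 genes that respond within minutes to touch and handling was followed in the same libraries. It summed to 119 to 174 CPM in HO-Malaka, 128 to 166 in AX-Malaka, 125 to 146 in HO-MSU and 105 to 128 in AX-MSU libraries. Most of this sum was TCH3, with group means of 80.2 to 96.7 CPM, so it says little about the other genes. Of the 7 that passed the filter, ZAT10, a zinc finger regulator of stress genes, was called higher in HO plants in both soils (log2FC 1.97 ± 0.35, SE, and 1.33 ± 0.38). Over all tested genes 1.25% were called higher with Malaka and 1.42% with MSU. TCH4, a touch-induced xyloglucan-modifying enzyme, went the other way with Malaka (-0.81 ± 0.14, SE; FDR = 0.000253, edgeR), under the limit on the log2FC, and was -0.14 with MSU. TCH4 was also lower in AX-MSU than in AX-Malaka plants (-1.09 ± 0.14, SE). The part of such responses in the values of the oxidase genes was not tested.

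For the 3 most abundant genes, the profiles nearest to theirs were sought over all 12 libraries among tested genes outside the family, as the Euclidean distance of log2 CPM centred on each gene's mean, where a smaller value means more alike. For OGOX1 they were AT2G32240 (0.359), SUE4 (0.388) and WRKY15 (0.407). For CELLOX they were AT3G56930 (0.522), AT4G29960 (0.536) and GATA9 (0.537). For OGOX2 they were TRM8 (0.313), CYP89A5 (0.384) and AT5G10920 (0.385). These points share library, depth and treatment, and the likeness is a description over 12 libraries.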

How the data were processed

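RNA-seq was done on 12 rosette libraries. Per the labels, a stranded kit was used, and the submitters' processing notes name Trimmomatic 0.39, STAR, featureCounts and the build TAIR10. The deposited values are raw read counts per gene, not normalized by the authors; the annotation release and the handling of reads with several matches are not given in the sources used here.

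Counts were analysed in R 4.3.3 with edgeR 4.0.16: filterByExpr (minimum count 10, minimum total 15), TMM normalization, and glmQLFit and glmQLFTest on a model of the 4 groups with contrasts, over 17588 genes with Benjamini-Hochberg adjustment. HO over AX was called at a |log2FC| of at least 1 and an FDR under 0.05, soil contrasts and the interaction at an FDR under 0.05. SE is the size of the log2FC divided by the root of F. A gene without counts in a group was given a floor of 3 counts over the group. The code was tested on simulated data. Sequences came from RefSeq TAIR10.1 (Python 3.11.15, Biopython 1.88).

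The genes and lists were chosen with earlier results of these data known. Named genes were the 10 genes, other family genes passing the filter or with counts in at least 3 libraries, list genes called in a contrast and, for the 3 most abundant, the 3 nearest profiles; CYP82C2 and CYP71B15 were added for their place in the pathway, after their values were seen. Alternatives were DESeq2 1.42.0, other scalings and filters, a replicate block, each soil alone, and each library left out. The labels call each pool a biological replicate.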

Additional observations from a re-analysis of the deposited data

How the results depend on the processing

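Because the 10 genes were picked on the HO-over-AX difference, their calls in that contrast are listed only as a record and say nothing about stability. There were 4 with each soil, and 3 and 3 with DESeq2, 6 and 5 without a filter on low counts, 5 and 4 with a filter of 0.5 CPM in 1 library, and 4 and 4 with RLE scaling, with total counts, without rRNA and organelle genes, and with each soil fitted alone. Leaving out 1 library gave 3 to 4 for Malaka and 4 for MSU. The gene lost with DESeq2 in both soils, and with Malaka without AX-Malaka replicate 2, was AT1G30700. No soil or interaction call was made for any of the 10 under any of these settings. Of the other family genes, 1 was called with Malaka. It was 2 without a filter, and 1 to 2 with a library left out (2 without AX-Malaka replicate 1, when AT5G44390 had a log2FC of 2.51). With MSU 3 were called, and 1 to 3 with a library left out. No called log2FC changed sign. Scaling to total counts moved the median log2FC of all genes from 0.00 to -0.16 with MSU and split the calls there into 183 higher and 113 lower, against 250 and 62. It reduced the genome-wide soil calls from 51 to 17 in HO and from 114 to 23 in AX plants and the interaction calls from 49 to 14. Without a filter these were 189, 258 and 181, and with DESeq2 85, 131 and 57. Leaving out 1 library gave 16 to 223, 25 to 190 and 15 to 191, with the highest interaction and HO soil counts without HO-Malaka replicate 2. Without a filter AT5G44400 passed the HO soil contrast (-0.81, FDR = 0.0400, edgeR).

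Replicate numbers are shared by all groups. Libraries with the same number deviated from their group means with a correlation of -0.0285 to 0.186 (median 0.0217, 18 pairs, 1 above 0.1). For libraries with different numbers it was -0.159 to 0.0850 (median -0.0188, 36 pairs, 0 above 0.1). The same-number values were thus somewhat higher but low, and the number was not taken as a pairing in the main fit. With a replicate block the calls were again 4 and 4 among the 10 genes, 0 in both soil contrasts and the interaction, and 1 and 3 among the other family genes. The genome-wide calls rose with the block, to 116 and 192 for soil in HO and AX plants and 104 for the interaction, from 51, 114 and 49 in the main fit.

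Depth limits the genes with few counts: 3 counts correspond to 0.134 to 0.303 CPM, depending on the library.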
